A study of Mus musculus with 6 samples.

Results

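The Adam, Adamts and Adamtsl genes were examined in RNA-seq data of smooth muscle cells from mouse aorta, the cells that contract the vessel wall. Members were the genes marked protein-coding whose symbol is Adam, Adamts or Adamtsl followed by a number and at most 1 letter. That gave 36 genes, namely 18 Adam, 13 Adamts and 5 Adamtsl genes, out of 14195 protein-coding genes in the table. The samples were 3 libraries of floxed mice (genotype miR-21fl/flmTmG/Myh11ERT2, group label miR21 -/-, called KO here) and 3 of control mice (WT/mTmG/ Myh11ERT2, called WT), all from strain C57B6 at 12 weeks. KO and WT thus shared a pair of alleles: mTmG reports Cre activity by fluorescence, and Myh11ERT2 drives inducible Cre from the smooth muscle myosin promoter. The labels do not say whether the inducer was given, whether cells were cultured, or whether each library came from its own animal, so p-values measure the spread between these libraries, which may in part be technical. Loss of miR-21 itself was not checked here.

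ADAM proteins are membrane-anchored metalloproteases, and the active ones release growth factors, receptors and adhesion molecules from the cell surface, a step called shedding. ADAMTS proteins are secreted relatives with thrombospondin repeats; they cut proteoglycans such as versican and aggrecan, trim procollagens, or act on fibrillin microfibrils. ADAMTS-like proteins lack the protease domain and bind the matrix. In the artery these genes are known for versican turnover in the wall, for shedding of EGF receptor ligands and Notch, and for the assembly of microfibrils.

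The libraries held between 17123748 and 28610649 counts. Smooth muscle markers were high in all of them, with 7 marker genes summing to between 43464 and 44578 CPM in KO and between 42052 and 48377 CPM in WT (CPM is a gene's count relative to the TMM-scaled library total). The fitted mean was lower in KO for 6 of these 7 markers, against 50.1% of all genes, and Myh11 was higher (log2 fold change 0.18). Among the 6, Smtn and Myocd were near 0, at −0.01 and −0.02. Without WT replicate 1, values were 0.02 for Smtn, 0.01 for Myh11, −0.03 for Acta2 and −0.04 for Tagln. They were −0.035 for Lmod1, −0.19 for Myocd and −0.22 for Cnn1. With all libraries Cnn1 had the largest difference of the 6, with 2613 ± 89.1 CPM in KO and 3259 ± 435.5 CPM in WT (SD). Its log2 fold change of −0.32 did not pass (edgeR unadjusted p = 0.0459, adjusted p = 0.778). Markers of other cells were lower: 7 fibroblast genes summed to between 49.2 and 98.9 CPM in KO and between 65.04 and 81.8 CPM in WT, and 7 macrophage genes to between 1.25 and 8.08 CPM in KO and between 3.98 and 7.84 CPM in WT. The 7 endothelial genes summed to between 35.9 and 48.2 CPM in KO and between 37.0 and 39.4 CPM in WT, most of it from the adhesion molecule Pecam1 (between 29.3 and 42.0 CPM in KO and between 31.8 and 35.3 CPM in WT), while the endothelial cadherin Cdh5 was at or below 0.584 CPM in KO and 0.560 CPM in WT. Of the genes tested, the fitted mean was higher in KO for 4 of 4 endothelial, 4 of 7 fibroblast and 1 of 3 macrophage markers. Fabp4, a lipid carrier of adipocytes and some endothelium, was at between 38.9 and 68.8 CPM in KO and between 53.5 and 74.55 CPM in WT. The other adipocyte markers looked for, Adipoq, Plin1, Cidec and Lep, had no entry among the deposited genes. WT replicate 1 stood apart from the other 5 libraries, at 58.1 on a first principal component where the others lay between −27.3 and −1.53. In bulk RNA, fewer cells of a type and less RNA per cell cannot be told apart.

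Since the mice differ at the miR-21 locus, the mature arms of this microRNA and their matches in member transcripts are shown first. Both arms come from the minus strand of chromosome 11 (RefSeq, GRCm38.p6), mmu-miR-21a-5p at chr11:86584120-86584141 and mmu-miR-21a-3p at chr11:86584082-86584103. Capitals mark the seed, bases 2 to 8.

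mmu-miR-21a-5p: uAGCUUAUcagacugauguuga

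mmu-miR-21a-3p: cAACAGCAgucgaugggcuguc

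The longest annotated 3′ UTR of each gene (GENCODE vM1, read as sequence only) was searched on the transcript strand for ATAAGCT or TAAGCTA, the 7-base matches of the 5p arm, which overlap each other in the 8-base match ATAAGCTA. Of the 30 members tested below, 3 held one (10%), against 12.0% of 11009 tested genes with such a UTR. All are 7-base matches, in Adamts3, Adamts5 and Adamts6, and the 30 bases around each are given with the match in capitals.

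Adamts3: atcataagtcaacagccTAAGCTAtgactc

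Adamts5: acaggtccattcattatTAAGCTAatgcac

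Adamts6: tgatgccatgcggaaagATAAGCTggctta

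Matches of the 3p arm, TGCTGTT or GCTGTTA, were found in 14 of those 30 members (46.7%), against 26.1% of the 11009 genes. Member UTRs were also longer, with a median of 2044 bases against 1227 bases over those genes, and the share was not adjusted for length. The 4 members with the full 8-base match TGCTGTTA are shown because they lie on different sides of the comparison: the fitted means of Adam12 and Adam17 were higher in KO and those of Adamts5 and Adamtsl5 lower. None of the 4 had an adjusted p under 0.05 in the edgeR test described below. The log2 fold change of Adam12 was −0.10 without KO replicate 2, and that of Adam17 was 0.04 without WT replicate 1. Those of Adamts5 and Adamtsl5 stayed below 0 with any 1 library left out.

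Adam12: atgtttgtatgttacaTGCTGTTAtttttg

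Adam17: ccgttcctggtgacagTGCTGTTAagtctt

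Adamts5: gaaattaagaacttgcTGCTGTTAaataaa

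Adamtsl5: cccacctcccaggagcTGCTGTTAcaggtg

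A match is a description of letters only. The log2 fold changes of the 3 members with a 5p match were −0.38 (Adamts3), −0.29 (Adamts5) and 0.03 (Adamts6). None of the 3 had an adjusted p under 0.05 in edgeR, and Adamts3 had only between 20 and 52 counts per library. Over the 11009 tested genes with such a UTR, the median was 0.082 with a 5p match and −0.007 without.

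Levels between genes were compared as CPM per kilobase of the longest annotated transcript. Adamts1, a protease that cuts versican, was the most abundant member, at 127 ± 36.6 CPM per kilobase in KO and 139 ± 40.4 in WT (SD, n = 3 each, as for all SDs below). It took 28.4%, 40.1% and 30.5% of the family's summed CPM in KO replicates 1 to 3, and 25.4%, 39.0% and 33.6% in WT replicates 1 to 3. Adamtsl5, a secreted protein that binds fibrillin, came next at 52.6 ± 3.07 CPM per kilobase in KO and 64.3 ± 9.04 in WT. Adam33, Adam9, Adam15, Adamts8 and Adamts10 formed a group between 27.1 and 34.1 CPM per kilobase in KO and between 30.3 and 40.8 in WT. The order within it differed between the genotypes, with Adam9 highest in KO and Adamts8 highest in WT. Among the other ADAM proteases, Adam17 was at 11.5 ± 0.797 CPM per kilobase in KO and 9.82 ± 2.33 in WT, and Adam10 at 11.0 ± 1.79 in KO and 9.07 ± 3.31 in WT, so this pair did not differ in level beyond the spread. The lowest members that were still tested, among them Adam12, Adam22, Adam23, Adamts7 and Adamts17, lay at or below 0.165 CPM per kilobase in both genotypes.

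**Figure D1:**
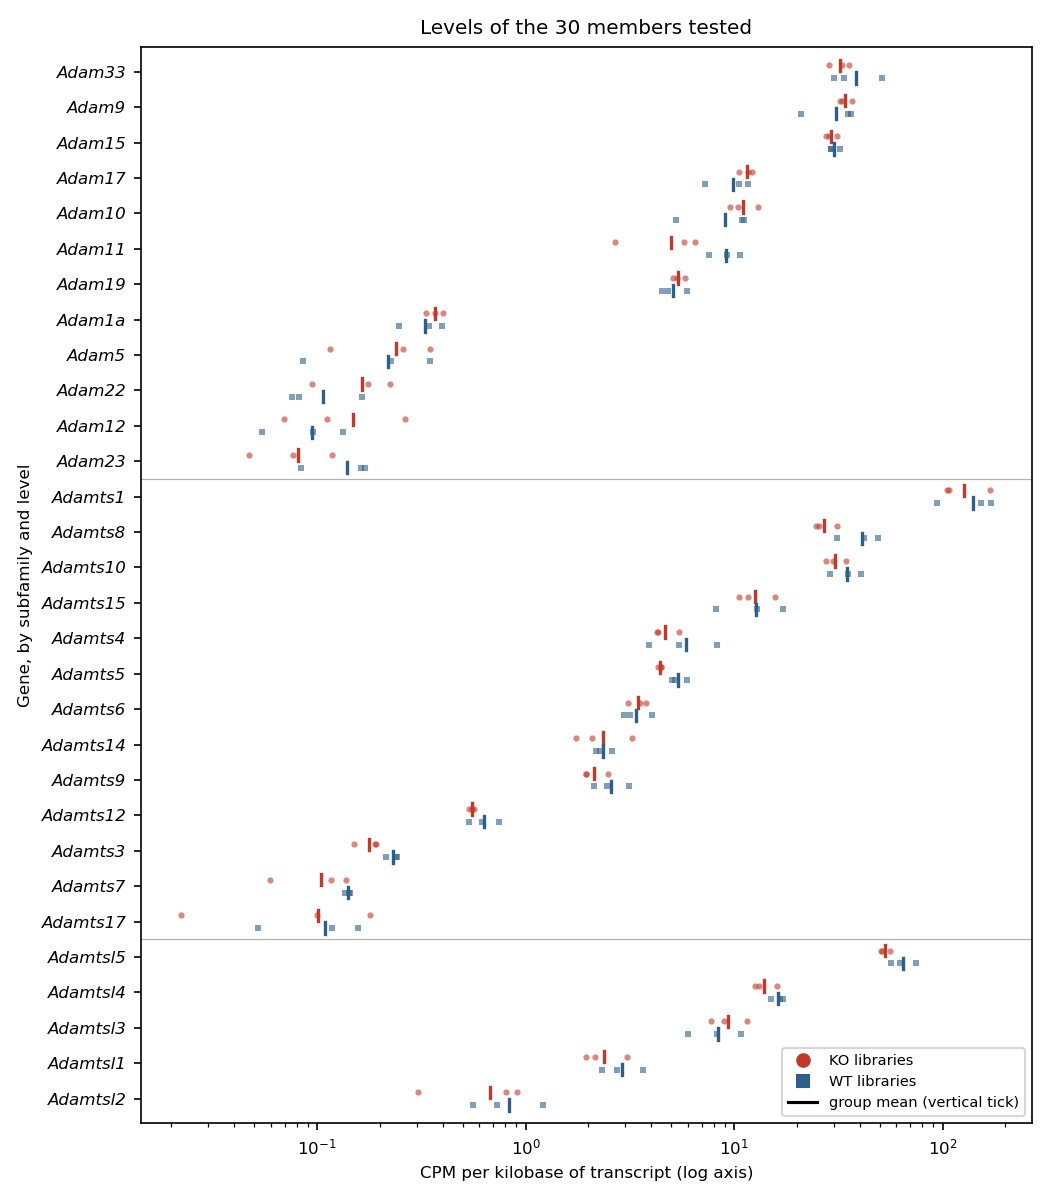
Level of the 30 members tested, as CPM per kilobase of the longest transcript on a log axis. Circles are KO libraries, squares WT libraries and vertical ticks group means, with genes ordered by level within the Adam, Adamts and Adamtsl groups. Adamts1 lies above all other members, and the KO and WT points overlap for most genes.

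The question of the design is how these cells differ between the genotypes. The filter on low counts (filterByExpr) kept 30 of the 36 members. In edgeR's quasi-likelihood test (Benjamini-Hochberg adjustment across the 15185 genes that passed the filter), 0 members had an adjusted p under 0.05, as had 0 of all genes (0.0%). The share with an adjusted p under 0.05 in DESeq2 was 0 of 30 members, against 0.473% of the genes with such a value. At an unadjusted p under 0.05, edgeR listed 3 members as lower in KO (10%, against 3.44% of all genes), namely Adamts8, Adam11 and Adamts5. It listed 0 as higher (against 2.85% of all genes). All 3 KO libraries lay below all 3 WT libraries for 5 members (16.7%, against 7.57% of all genes), which are these 3 with Adamtsl5 and Adamts3. For 0 members did all KO libraries lie above the WT libraries (against 6.95% of all genes). The fitted mean was lower in KO for 19 of 30 members (63.3%), against 50.1% of all genes, and the median log2 fold change was −0.16 against −0.0008 over all genes. Members that passed the filter are not a random draw of genes, so these shares are a description.

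**Figure D2:**
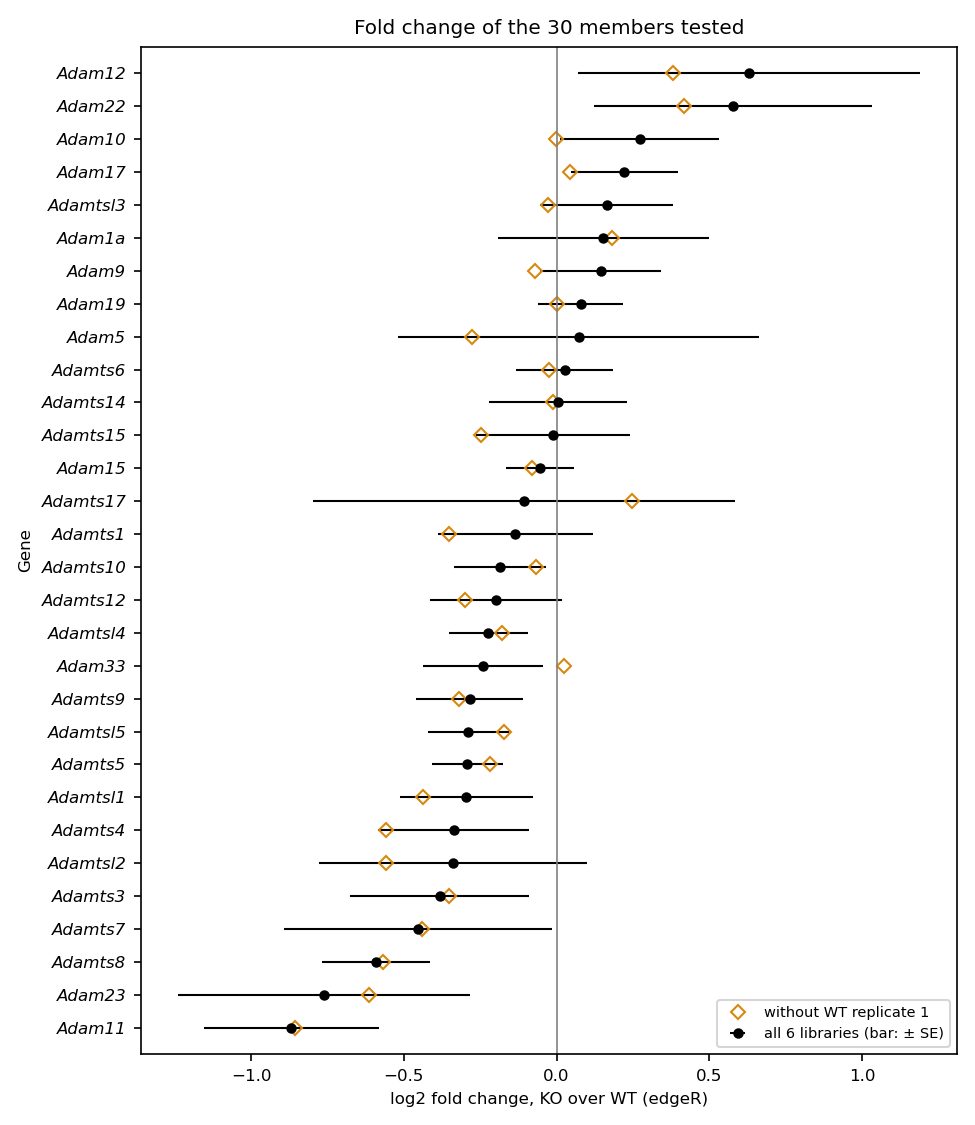
Log2 fold change, KO over WT, of the 30 members tested. Filled points with bars give the value and its SE from all 6 libraries, and open diamonds the value without WT replicate 1. Adam11, Adam23 and Adamts8 have the lowest values, and the diamonds of Adam9 (−0.07) and Adam33 (0.02) are among those on the other side of 0 from their filled points.

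Among the ADAM proteases with a catalytic site, no difference passed. Adam10, the constitutive sheddase of Notch and cadherins, had 59.7, 44.0 and 47.7 CPM in KO replicates 1 to 3, against 24.1, 51.1 and 49.8 CPM in WT replicates 1 to 3. Its low value was that of WT replicate 1, and the other 5 libraries overlapped. Its log2 fold change was 0.27 ± 0.26 SE with all libraries and −0.001 without WT replicate 1.

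Adam17, the protease that releases TNF and several EGF receptor ligands, had 52.3, 54.2 and 47.3 CPM in KO, against 32.2, 52.3 and 47.2 CPM in WT. Adam9, a widely expressed sheddase, had 147, 132 and 128 CPM in KO, against 83.2, 140.7 and 144 CPM in WT. For both genes WT replicate 1 was again the lowest library. Log2 fold changes were 0.22 ± 0.18 SE for Adam17 (0.04 without WT replicate 1) and 0.15 ± 0.20 SE for Adam9 (−0.07 without it).

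Adam33, a mesenchymal ADAM known from a human locus of asthma susceptibility, showed the opposite: 90.5, 112 and 105 CPM in KO, against 162, 95.2 and 106.3 CPM in WT, with WT replicate 1 the highest. Its log2 fold change was −0.24 ± 0.20 SE and 0.02 without that library. Adam15, an ADAM that also binds integrins, had the smallest range over the libraries of the members tested (1.17-fold from lowest to highest), with 122, 108 and 112 CPM in KO, against 114, 126.5 and 114 CPM in WT. The log2 fold change of Adam15 was −0.06 ± 0.11 SE.

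Adam19, also called meltrin beta, had 32.3, 37.0 and 34.0 CPM in KO, against 28.9, 30.6 and 38.1 CPM in WT (log2 fold change 0.08 ± 0.14 SE). Adam12, also called meltrin alpha, was close to its detection limit, with 15, 45 and 15 counts in KO and 7, 20 and 21 counts in WT. KO replicate 2 set its value: the log2 fold change of Adam12 was 0.63 ± 0.56 SE, and −0.10 without that library. Adam8, an ADAM of leukocytes, was not tested, with 3, 6 and 8 counts in KO and 1, 3 and 16 counts in WT.

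Adam11, Adam22 and Adam23 lack the catalytic zinc site and are known mainly from neurons, where Adam22 and Adam23 serve as receptors of Lgi1. Adam11 was expressed well above the other 2. It had 13.7, 33.1 and 29.5 CPM in KO replicates 1 to 3, against 47.0, 54.4 and 38.6 CPM in WT replicates 1 to 3. The groups did not overlap, and KO replicate 1 lay far below the other 2 KO libraries. The means were 25.4 ± 10.3 CPM in KO and 46.7 ± 7.92 CPM in WT, a log2 fold change of −0.87 ± 0.29 SE that did not pass (edgeR unadjusted p = 0.0143, adjusted p = 0.760; 2-sided exact permutation p = 0.1, the smallest that 3 against 3 allows).

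Without KO replicate 1 the log2 fold change of Adam11 was −0.57, and without WT replicate 1 its unadjusted p was 0.0983. Adam11 lies on the plus strand of chromosome 11 from 102761439 to 102780262 (mm10). Adam22 had 29, 47 and 25 counts in KO and 13, 14 and 44 counts in WT. Adam23 had 9, 7 and 22 counts in KO and 19, 11 and 31 counts in WT. The groups of these last 2 genes overlapped, with log2 fold changes of 0.58 ± 0.46 SE for Adam22 and −0.76 ± 0.48 SE for Adam23.

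The remaining 7 Adam genes are known mainly from testis and sperm, and all had few counts. Adam1a and Adam5 were tested, at 1.14 ± 0.107 and 0.669 ± 0.327 CPM in KO and at 1.02 ± 0.235 and 0.611 ± 0.365 CPM in WT. Their log2 fold changes were 0.15 ± 0.35 SE and 0.07 ± 0.59 SE. Adam1b, Adam4, Adam21, Adam30 and Adam32 did not pass the filter and had at most 22 counts in any library. Adam1b had 0, 1 and 12 counts in KO and 0 counts in each WT library, so 1 library held nearly all of them. Its deposited values were fractional, as were those of Adam1a, and the sources used here do not say how reads were divided between these similar neighbouring genes. Adam1a is also overlapped by Gm42878 on the same strand (3459 bases, mean 2.12 CPM), so its count is uncertain.

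The proteoglycan-cleaving ADAMTS proteases are Adamts1, Adamts4, Adamts5, Adamts8, Adamts9 and Adamts15. All 6 had a lower fitted mean in KO, with log2 fold changes between −0.59 and −0.01, against a lower fitted mean in 50.1% of all genes, and 2 of them were lower at an unadjusted p under 0.05, against 3.44% of all genes. The count rests in part on single libraries, since Adamts15 was at 0.26 without WT replicate 3 and Adamts1 at 0.04 without WT replicate 2. The summed level of the 6 genes was 799, 1057 and 745 CPM in KO replicates 1 to 3 and 746, 1108 and 1130 CPM in WT replicates 1 to 3, so the sums overlapped.

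Adamts8 had the smallest p of the family. It had 113.0, 92.3 and 89.8 CPM in KO, against 152.9, 113.2 and 178.4 CPM in WT. The highest KO library lay just below the lowest WT library, and with DESeq2 size factors, library totals or a filter at a mean CPM of 1 the groups overlapped. The means were 98.4 ± 12.8 CPM in KO and 148 ± 32.9 CPM in WT. The log2 fold change of −0.59 ± 0.18 SE did not pass (edgeR unadjusted p = 0.00867, adjusted p = 0.668; DESeq2 adjusted p = 0.219; 2-sided exact permutation p = 0.1). Leaving out any 1 library gave values between −0.75 and −0.44. On mm10 the gene occupies chromosome 9 from 30942562 to 30963838 on the plus strand, and an antisense transcript of low level (Gm29724, mean 2.88 CPM) overlaps it by 9752 bases.

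Adamts5, an aggrecanase, had 36.1, 34.8 and 36.2 CPM in KO, against 48.2, 40.6 and 42.3 CPM in WT. The KO libraries lay close together and below each WT library. The means were 35.7 ± 0.792 CPM in KO and 43.7 ± 4.0 CPM in WT, a log2 fold change of −0.29 ± 0.12 SE that did not pass (edgeR unadjusted p = 0.0331, adjusted p = 0.778). Its unadjusted p was above 0.05 with library totals and without any 1 of the KO libraries. The same held with replicate number as a block (edgeR unadjusted p = 0.099) and without WT replicate 1 in DESeq2 (DESeq2 unadjusted p = 0.0629). Adamts5 occupies chromosome 16 from 85858170 to 85901125 on the minus strand and, like Adamts3, holds matches to both miR-21 arms.

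Adamts1 had 513, 826.5 and 522 CPM in KO, against 459.5, 837 and 746.5 CPM in WT. High and low libraries occurred in both genotypes, and the log2 fold change of −0.14 ± 0.25 SE ran from −0.40 without KO replicate 2 to 0.04 without WT replicate 2.

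Adamts4, another aggrecanase, had 23.96, 18.8 and 18.8 CPM in KO, against 17.2, 23.95 and 36.2 CPM in WT. Its value depended on single WT libraries: the log2 fold change was −0.34 ± 0.25 SE with all of them, −0.56 without WT replicate 1 (edgeR unadjusted p = 0.0149, adjusted p = 0.515) and −0.009 without WT replicate 3. Adamts9 had 19.8, 15.6 and 15.7 CPM in KO, against 19.8, 17.1 and 25.1 CPM in WT (log2 fold change −0.29 ± 0.18 SE, and −0.12 without WT replicate 3). Adamts15 was at 74.95 ± 16.05 CPM in KO and 75.3 ± 26.3 CPM in WT (−0.01 ± 0.25 SE, −0.25 without WT replicate 1 and 0.26 without WT replicate 3).

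**Figure D3:**
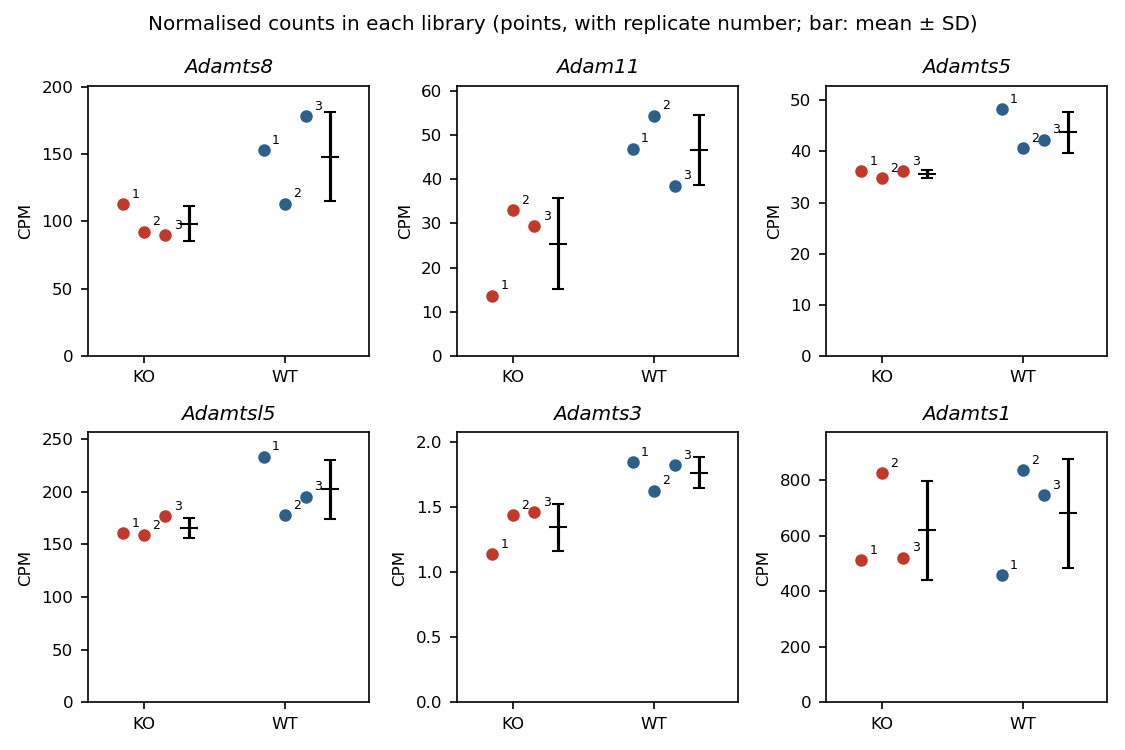
CPM in each library of the 5 members whose KO and WT libraries did not overlap, and of Adamts1, with KO left of WT. Points carry the replicate number and bars give mean ± SD (n = 3). The Adamts8 gap rests on KO replicate 1 at 113.0 and WT replicate 2 at 113.2 CPM, and KO replicate 1 is the low point of Adam11.

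Adamts3 and Adamts14 belong to the ADAMTS proteases that trim procollagen propeptides. Adamts3 had 20, 32 and 41 counts in KO and 31, 32 and 52 counts in WT, which after scaling gave 1.14, 1.44 and 1.46 CPM in KO, against 1.84, 1.63 and 1.82 CPM in WT. The groups lay apart, but counts were few and the log2 fold change of −0.38 ± 0.29 SE did not pass (edgeR unadjusted p = 0.222). Adamts14 had 9.05, 16.8 and 10.75 CPM in KO, against 11.8, 13.5 and 11.2 CPM in WT (0.005 ± 0.23 SE).

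Adamts7 and Adamts12 cut cartilage oligomeric matrix protein, and ADAMTS7 is known from a human locus of coronary artery disease. Adamts7 was barely detected, with 13, 14 and 9 counts in KO and 13, 15 and 21 counts in WT. Its gene overlaps Tbc1d2b (mean 108 CPM) on the opposite strand by 6045 bases, so that part of its count is uncertain. Adamts12 had 3.53, 3.32 and 3.45 CPM in KO, against 3.33, 4.63 and 3.85 CPM in WT. Log2 fold changes were −0.45 ± 0.44 SE for Adamts7 and −0.20 ± 0.22 SE for Adamts12.

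Adamts10 and Adamts17 act on fibrillin microfibrils, and their human genes underlie Weill-Marchesani type syndromes; Adamts6 is the nearest relative of Adamts10. Adamts10 had 113.5, 142 and 122 CPM in KO, against 166, 119 and 144.5 CPM in WT, so the groups overlapped (log2 fold change −0.19 ± 0.15 SE, and −0.07 without WT replicate 1). Adamts6 was at 16.7 ± 1.63 CPM in KO and 16.3 ± 2.75 CPM in WT (0.03 ± 0.16 SE). Adamts17 was at 0.607 ± 0.473 CPM in KO and 0.659 ± 0.321 CPM in WT (−0.11 ± 0.69 SE).

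Of the 5 ADAMTS-like genes, 4 had a lower fitted mean in KO, against 50.1% of all genes, and 1 of the 4, Adamtsl2, was at 0.04 without WT replicate 3. Adamtsl5 had 161, 159 and 176.5 CPM in KO replicates 1 to 3, against 233, 178 and 195 CPM in WT replicates 1 to 3. The groups lay apart, although KO replicate 3 and WT replicate 2 nearly met. The means were 165 ± 9.65 CPM in KO and 202 ± 28.4 CPM in WT, a log2 fold change of −0.29 ± 0.13 SE that did not pass (edgeR unadjusted p = 0.0566, adjusted p = 0.778). Without WT replicate 1, its highest library, the value was −0.17.

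Adamtsl4, which binds fibrillin-1 and whose human gene is mutated in lens dislocation, had 65.1, 52.9 and 50.9 CPM in KO, against 69.6, 66.9 and 60.6 CPM in WT. Only KO replicate 1 reached into the WT range (log2 fold change −0.22 ± 0.13 SE). Adamtsl3, also called punctin-2, had 83.1, 64.9 and 56.2 CPM in KO, against 43.5, 60.2 and 78.0 CPM in WT (0.16 ± 0.22 SE, and −0.03 without WT replicate 1). Adamtsl1, also called punctin, was at 18.7 ± 4.61 CPM in KO and 22.7 ± 5.37 CPM in WT (−0.30 ± 0.22 SE). Adamtsl2, which binds the latent TGF-beta binding protein Ltbp1, was at 2.44 ± 1.17 CPM in KO and 3.01 ± 1.22 CPM in WT (−0.34 ± 0.44 SE).

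The 30 members varied between libraries as well as between genotypes. WT replicate 1 was the lowest library for 10 members and the highest for 8, against 32.4% and 32.1% of all genes tested, shares close to those of the family (33.3% and 26.7%). Members lowest there included Adam9, Adam10, Adam17, Adamts1 and Adamts15, and members highest there included Adam33, Adamts5, Adamts10, Adamtsl4 and Adamtsl5. WT replicate 3 was the highest library for 8 members (26.7%, against 12.9% of all genes) and the lowest for 0 (against 13.3%). Summed over all 36 members, the level was 1805, 2061.5 and 1709 CPM in KO and 1809, 2147.5 and 2223 CPM in WT, with KO replicate 2 inside the WT range. The part that library differences have in the fold changes was not tested beyond leaving each library out.

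**Figure D4:**
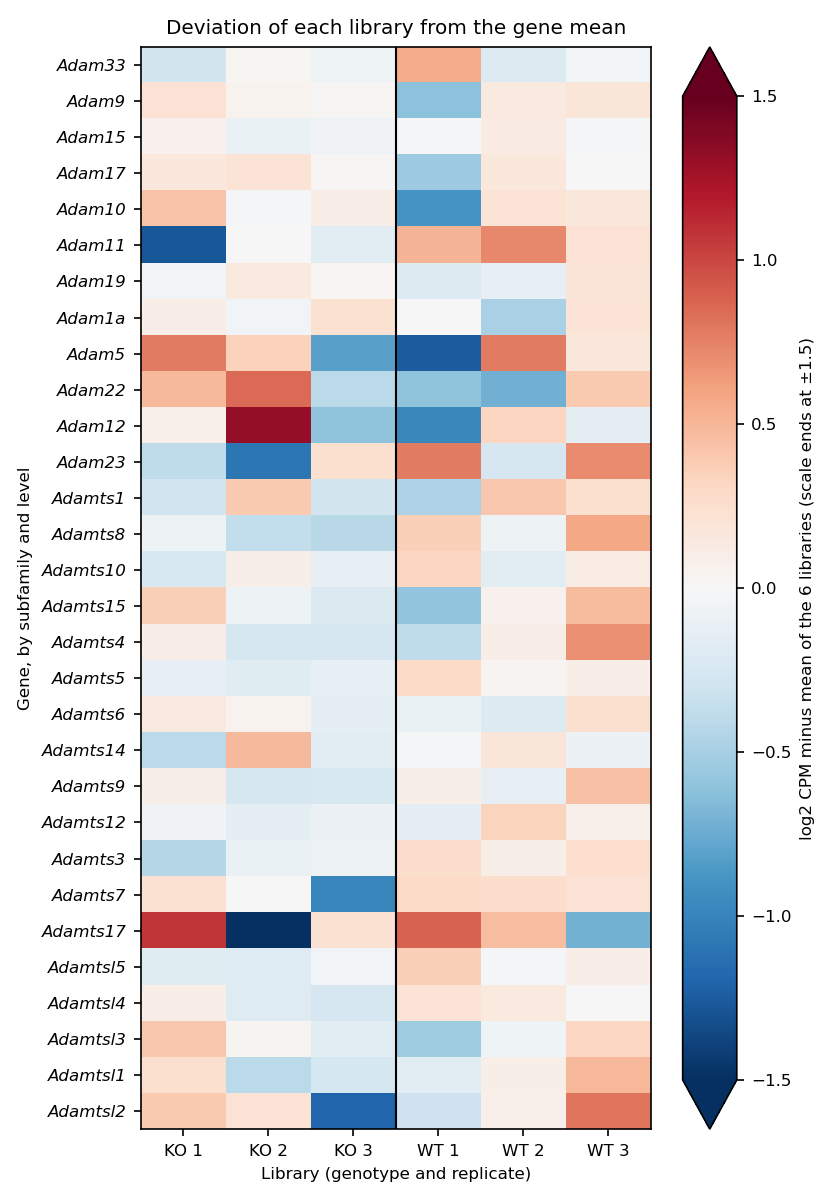
Deviation of each library from the gene's mean over the 6 libraries, in log2 CPM, for the 30 members tested, with KO libraries left of WT libraries. WT replicate 1 is low for Adam9, Adam17, Adam10 and Adamts15 and high for Adam33, and the KO columns are below 0 for Adamts8, Adamts5 and Adamtsl5. For Adamts8 and Adamtsl5, WT replicate 2 is also below 0.

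Several members are neighbours in the genome. Adamts1 and Adamts5 lie 55.1 kb apart on chromosome 16, both on the minus strand, and Adamts15 and Adamts8 lie 20.1 kb apart on chromosome 9 on opposite strands, with no other gene of the table between the genes of either pair. Adam5, Adam32 and Adam9 follow each other on the minus strand of chromosome 8, where the gap between Adam32 and Adam9 is 806 bases. Levels within such pairs were far apart: Adamts8 was at 27.1 ± 3.51 CPM per kilobase in KO and 40.8 ± 9.05 in WT, its neighbour Adamts15 at 12.6 ± 2.71 in KO and 12.7 ± 4.43 in WT. Adam9 was at 34.05 ± 2.5 CPM per kilobase in KO and 30.8 ± 8.59 in WT, while Adam32 had at most 8 counts in any library.

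Genes that act with the family were taken from 5 lists of partners, substrates and inhibitors, 61 genes tested in all. In edgeR 0 of them passed over all genes, and DESeq2 called 0. The lists had 0 members at an unadjusted p under 0.05 of 8 sheddase partners, 1 of 23 shed substrates, 3 of 18 matrix substrates, 1 of 7 inhibitors and clearance genes, and 1 of 6 secretion and maturation genes, against 6.29% of all genes in either direction. Median log2 fold changes were −0.006, −0.04, −0.07, 0.11 and −0.09 in the same order, against −0.0008 over all genes.

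The sheddase partners carry Adam17 or Adam10 to the cell surface. Rhbdf1 and Rhbdf2, the iRhom partners of Adam17, were at 110.5 ± 5.5 and 42.1 ± 5.70 CPM in KO and at 121 ± 5.22 and 40.5 ± 6.68 CPM in WT. Their log2 fold changes were −0.13 and 0.06. Frmd8, which stabilises that complex, was at 0.11, and the Adam10 partners Tspan14 and Tspan17 were at −0.11 and −0.10.

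Of the shed substrates, the heparan sulphate proteoglycan Sdc1 had 42.2, 36.7 and 36.4 CPM in KO, against 53.0, 44.4 and 52.4 CPM in WT. The groups lay apart and the log2 fold change of −0.38 did not pass (edgeR unadjusted p = 0.0141, adjusted p = 0.760). Its relative Sdc4 was at −0.30, the transmembrane chemokine Cxcl16 at −0.52 and the Notch ligand Dll1 at −0.76, the last with at most 2.73 CPM in any library. Single WT libraries moved the Dll1 value, to −0.20 without WT replicate 3 and −1.09 without WT replicate 1.

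Among the matrix substrates the direction was mixed. Acan, the aggrecan gene, had 72.8, 53.1 and 63.8 CPM in KO, against 36.2, 61.8 and 35.3 CPM in WT. WT replicate 2 lay within the KO range, and the log2 fold change was 0.51 (edgeR unadjusted p = 0.0493, adjusted p = 0.778). It was 0.83 without WT replicate 2 (edgeR unadjusted p = 0.00108) and 0.36 without WT replicate 3 (edgeR unadjusted p = 0.158). Vcan, the versican gene, was at 79.8 ± 5.75 CPM in KO and 72.1 ± 8.69 CPM in WT (0.15). Col1a1, a chain of type I collagen, was at 1722 ± 149 CPM in KO and 2153 ± 201 CPM in WT (−0.32, edgeR unadjusted p = 0.0376, adjusted p = 0.778). Fmod, the collagen-binding fibromodulin, was at 12.4 ± 3.86 CPM in KO and 18.9 ± 1.51 CPM in WT (−0.61, edgeR unadjusted p = 0.0220, adjusted p = 0.776). For Col1a1 and Fmod all KO libraries lay below the WT libraries, but neither difference passed. Fbln1, a fibulin that serves as a cofactor of Adamts1, was at −0.49.

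Of the inhibitors, Reck, a membrane-anchored inhibitor of metalloproteases that also acts on Adam10, had 160, 156 and 137 CPM in KO, against 88.7, 113 and 136 CPM in WT. The groups lay apart, although KO replicate 3 and WT replicate 3 nearly met, and the log2 fold change of 0.43 did not pass (edgeR unadjusted p = 0.0267, adjusted p = 0.776). Timp3, the matrix-bound inhibitor of Adam17 and of the aggrecanases, was at 1999 ± 236 CPM in KO and 1843 ± 365 CPM in WT (0.12, and −0.03 without WT replicate 1). Timp1 was at −0.34, Timp4 at 0.12 and the clearance receptor Lrp1 at 0.11.

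Among the genes of secretion and maturation, Pcsk6, a proprotein convertase, was at 28.4 ± 1.84 CPM in KO and 37.7 ± 5.79 CPM in WT, with a log2 fold change of −0.41 (edgeR unadjusted p = 0.0180, adjusted p = 0.776). Its relatives Pcsk5 and Pcsk7 were at −0.30 and 0.22. Without WT replicate 1, DESeq2 called Pcsk5 (−0.44, adjusted p = 0.0128) and Pcsk6 (−0.53, adjusted p = 0.0101) as lower in KO, and edgeR called neither there. That DESeq2 setting was chosen after seeing the data, and it called 79 of 15608 genes, 59 of them as lower in KO. Pofut2, which puts fucose on thrombospondin repeats, was at 282 ± 7.85 CPM in KO and 309 ± 16.4 CPM in WT (−0.13), with the groups apart.

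**Figure D5:**
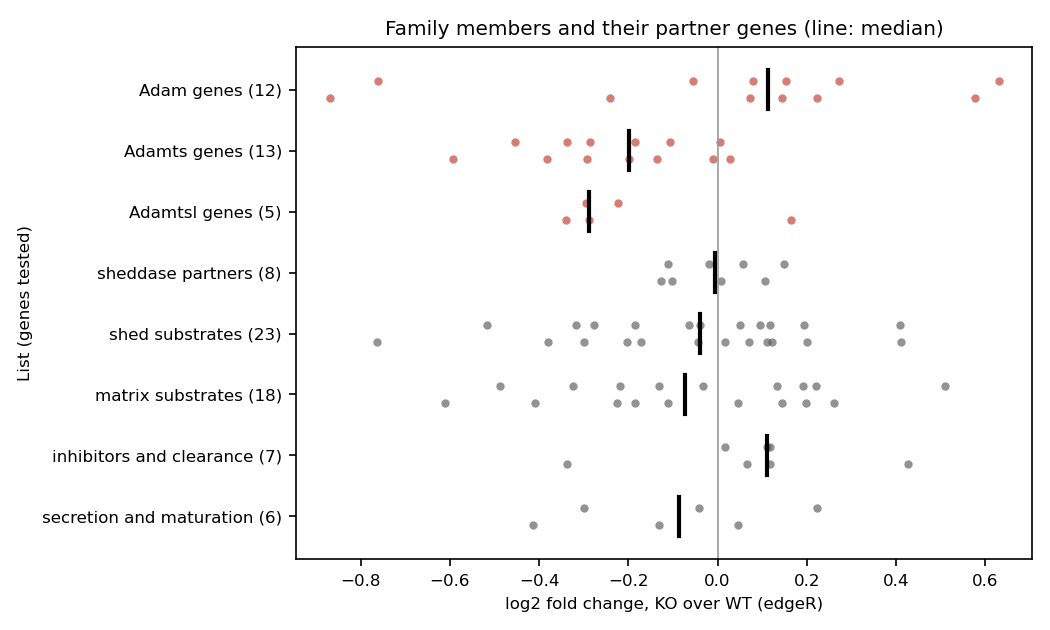
Log2 fold change, KO over WT, of the tested Adam, Adamts and Adamtsl genes (upper rows) and of the 5 lists of partner genes (lower rows); each point is a gene and each black line a median. Most Adamts and Adamtsl genes lie left of 0, and the partner medians lie between −0.09 and 0.11.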

How the data were processed

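The authors deposited 1 table of expected counts per gene for 6 libraries of total RNA (Illumina TruSeq RNA kit, per the labels' protocols). STAR 2.6, DESeq2 and build mm10 appear in the submitters' processing notes; the sources used here name neither the counting tool nor its strand setting. Of the deposited values, 65.4% were whole to within 0.01, and column totals differed. Deposited stops were reduced by 1 to give 1-based ends; with that, 16 of 36 member ends equalled RefSeq GRCm38.p6 ends, against 2 without it. One gene that the name pattern would match is not reported here.

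Counts were rounded, filtered with filterByExpr (15185 of 20199 genes kept) and scaled by TMM. Genotypes were compared with the quasi-likelihood test of edgeR 4.0.16 (robust=TRUE, R 4.3.3), 2-sided, adjusted over all genes tested with a threshold of 0.05. The code was checked on simulated counts with 200 changed genes. Those changes were larger than any of a member here, and no simulated library stood apart. How well changes of the size seen here would be found was thus not tested. Each standard error was taken as the absolute log2 fold change over the root of the F statistic. DESeq2 1.42.0 and limma 3.58.1 (voom) were alternatives, beside scaling, filter, robust=FALSE, the replicate block and leaving out each library. The members and lists were chosen with earlier results of these data known. Values in every library are given for members with an unadjusted edgeR p or a DESeq2 adjusted p under 0.05, the 3 most abundant of each subfamily per kilobase, and 14 members picked for their role; Adam8, Adam22, Adam23, Adamts3, Adamts14 and Adam1b were added after their values were seen. From each partner list the rule took the 4 smallest p-values plus Timp3, Reck, Rhbdf2 and Vcan. Matches to the 3p arm of miR-21 were searched as an addition to the rule, which named the 5p arm. Transcript lengths and UTRs were read from GENCODE vM1; its build is NCBIM37, so none of its coordinates are printed.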

Additional observations from a re-analysis of the deposited data

How the results depend on the processing

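Over all settings 0 members passed an adjusted p of 0.05. Over all genes the count was 0 in edgeR under each scaling and filter, with robust=FALSE and in limma voom, against 69 in DESeq2, 79 in DESeq2 without WT replicate 1 (chosen after seeing the data) and 0 to 9 in edgeR with 1 library left out (9 without WT replicate 1, 1 without WT replicate 2). In DESeq2 without WT replicate 1, 2 partner genes passed. Adamts8 was listed at an unadjusted p under 0.05 in every setting, Adam11 in all but 3 (without WT replicate 1 or 2, and DESeq2 without WT replicate 1). With DESeq2 size factors or the mean CPM filter 4 members had groups apart, not 5, and with library totals 3 had. The share over all genes (7.57%) was counted in the main setting only. Without WT replicate 1 (chosen after seeing the data) 6 members had, but fewer libraries lie apart more easily, so 5 and 6 are not comparable. The median over members ran from −0.205 to −0.06 with 1 library left out.

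With 1 library left out, the log2 fold changes of these members reached or crossed 0: they ran from −0.001 to 0.44 for Adam10, −0.095 to 0.99 for Adam12, −0.10 to 0.000 for Adam15, 0.000 to 0.21 for Adam19, −0.38 to 0.024 for Adam33, −0.07 to 0.275 for Adam9, −0.40 to 0.044 for Adamts1, −0.027 to 0.39 for Adamtsl3, −0.25 to 0.26 for Adamts15, −0.295 to 0.18 for Adamts14, −0.056 to 0.17 for Adamts6, −0.74 to 0.37 for Adamts17, −0.28 to 0.52 for Adam5, −0.01 to 0.32 for Adam1a and −0.61 to 0.043 for Adamtsl2. Values that kept their sign but moved by over 1.5 times included those of Adamts7 (−0.68 to −0.15), Adamts12 (−0.30 to −0.064), Adamtsl1 (−0.51 to −0.093) and Adam22 (0.28 to 1.05). Among partner genes, values that crossed 0 ran from −0.054 to 0.20 for Rhbdf2, −0.027 to 0.25 for Timp3 and −0.034 to 0.21 for Timp4. DESeq2 without WT replicate 1 gave 0.026 for Adam33, −0.068 for Adam9, −0.021 for Adamtsl3 and −0.025 for Timp3. The causes were not tested.

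Same-numbered KO and WT libraries did not deviate together (Pearson correlations over genes of −0.27, −0.18 and −0.084, each lower than with at least 1 other number). No pairing by number was thus visible, although a weak shared effect could be missed in this way. With a replicate block, 0 genes passed, 572 had an unadjusted p under 0.05 against 955 without it, and 2 members did, Adam11 and Adamts8. For members under about 1 CPM, counts limit what can be seen.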
